A study of Homo sapiens with 8 samples.

Results

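The chemokine and formyl peptide receptors of THP-1 macrophages are described here through 9 genes, CCR1, CCR2, CXCR4, CX3CR1, ACKR3, CMKLR1, FPR1, FPR2 and FPR3, out of 17687 genes that carry a symbol on the array. The genes were chosen by name, each has a single probe set that carries its symbol alone, and all 9 were measured. THP-1 was derived from a human monocytic leukaemia, and all cells had first been turned into macrophage-like cells with the phorbol ester PMA (100 ng/mL). There were 4 conditions of 2 arrays each. Cells received epirubicin (0.25 µg/mL, 24 h) and LPS (100 ng/mL, 3 h), LPS without epirubicin, epirubicin without LPS, or neither, called untreated. Epirubicin is an anthracycline that intercalates into DNA, and LPS is the bacterial endotoxin that activates TLR4. The comparisons asked how low-dose epirubicin and LPS, alone and together, altered macrophage expression. All conditions came from 1 leukaemia line treated with PMA, and whether the duplicates were separate cultures was not stated, so the p-values reflect array-to-array spread that may be only technical.

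These receptors belong to the G protein-coupled receptor family of the plasma membrane, and most of them steer leukocytes along gradients of chemokines or of microbial and damage-derived peptides. CCR1, CCR2, CXCR4 and CX3CR1 are signalling chemokine receptors, and ACKR3 is an atypical receptor that binds and internalises chemokine without classical G protein signalling. CMKLR1 senses chemerin, and FPR1 of the FPR family senses formylated peptides released by bacteria and mitochondria. In monocytes, CCR2 is known for exit from the bone marrow towards CCL2, and CX3CR1 for survival and patrolling along vessels that carry its ligand CX3CL1.

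Values are deposited log2 expression values, and array medians over all gene probe sets lay between 5.75 and 5.84. A mean below 6 is called low here, and levels of different genes are not compared. Duplicates correlated at 0.985 to 0.987 over 21448 gene probe sets, and pairs from different conditions at 0.947 to 0.984. Of 12 macrophage markers, 12 had a mean of at least 6 in at least 1 condition and 11 in every condition, the exception being CD163, the haemoglobin scavenger receptor. None of 7 neutrophil markers reached 6 (means 2.60 to 5.31). Among markers of other cells, 1 of 7 lymphocyte genes (CD79A) and 1 of 7 fibroblast and epithelial genes (COL1A2) did so, and so did 3 of 6 genes of undifferentiated THP-1 (AZU1, PRTN3 and MYB). The macrophage markers averaged 13.58 to 13.62 on the arrays of epirubicin with LPS, 13.64 to 13.77 with LPS, 13.77 to 13.81 with epirubicin and 13.82 to 13.90 when untreated. CD14, the co-receptor of TLR4 for LPS, was the only one of the 12 past the threshold in both epirubicin comparisons, with log2 fold changes of −2.01 in the presence of LPS and −1.04 in its absence. The adjusted p of CD14 from limma was at most 0.05 with LPS and above 0.05 without it. CD14 and CSF1R, the receptor of the growth factor M-CSF, also passed it in both LPS comparisons, where they were lower. Of the 6 genes of undifferentiated THP-1, MYB, a transcription factor of immature blood cells, was the only one past the threshold, with means of 9.92 with epirubicin and LPS, 10.38 with LPS, 11.34 with epirubicin and 12.68 when untreated. It fell in both LPS comparisons and with epirubicin without LPS, the last with an adjusted p from limma above 0.05. CD79A, a part of the B cell receptor, rose with LPS without epirubicin (1.36). In the LPS comparison after epirubicin, CEACAM8 of the neutrophil list (1.08) and KRT14 of the fibroblast and epithelial list (1.23) rose at low levels. The part of these shifts in the receptor values was not tested. In RNA from whole cultures, fewer cells of a type and less RNA per cell cannot be told apart. Of 5 LPS-induced genes listed as a check, 4 were measured (IL1B, CXCL8, CCL20 and IL6, without TNF), of which 3 rose with LPS after epirubicin and 4 without it.

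Genes are said to rise or fall at an unadjusted p of at most 0.01 together with a change of at least 2-fold, which is the threshold of the study, and the Benjamini-Hochberg adjusted p from limma over all gene probe sets stands beside them. LPS lowered CCR1, CCR2 and CX3CR1 and raised CXCR4 and ACKR3, both in cells that had received epirubicin and in cells that had not. Thus 5 of 9 genes passed the threshold in the LPS comparison after epirubicin, against 12.1% of all gene probe sets. Of these, 2 rose (5.46% of all) and 3 fell (6.59%), and the adjusted p was at most 0.05 for all 5 (10.9%). Without epirubicin the same 5 of 9 passed, against 11.7% of all gene probe sets, with 2 higher (5.40%) and 3 lower (6.28%), again all at an adjusted p of at most 0.05 (10.6%). For CXCR4 that adjusted p was above 0.05 without LPS duplicate 1 (0.0607) and without untreated duplicate 2 (0.0592). In the epirubicin comparison with LPS, 1 of 9 passed (2.66% of all), CX3CR1, which fell (1.40%), with an adjusted p not above 0.05 (0.103%). In the epirubicin comparison without LPS, 2 of 9 passed (2.26%), ACKR3 and CMKLR1, which both rose (1.06%), and for 0 of 9 was the adjusted p 0.05 or less (0.0140%). FPR1, FPR2 and FPR3 passed it in none of these 4 comparisons. The comparisons are not independent of each other, since both untreated arrays serve the epirubicin and the LPS comparison of otherwise untreated cells, and the epirubicin with LPS arrays serve the other 2.

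**Figure D1:**
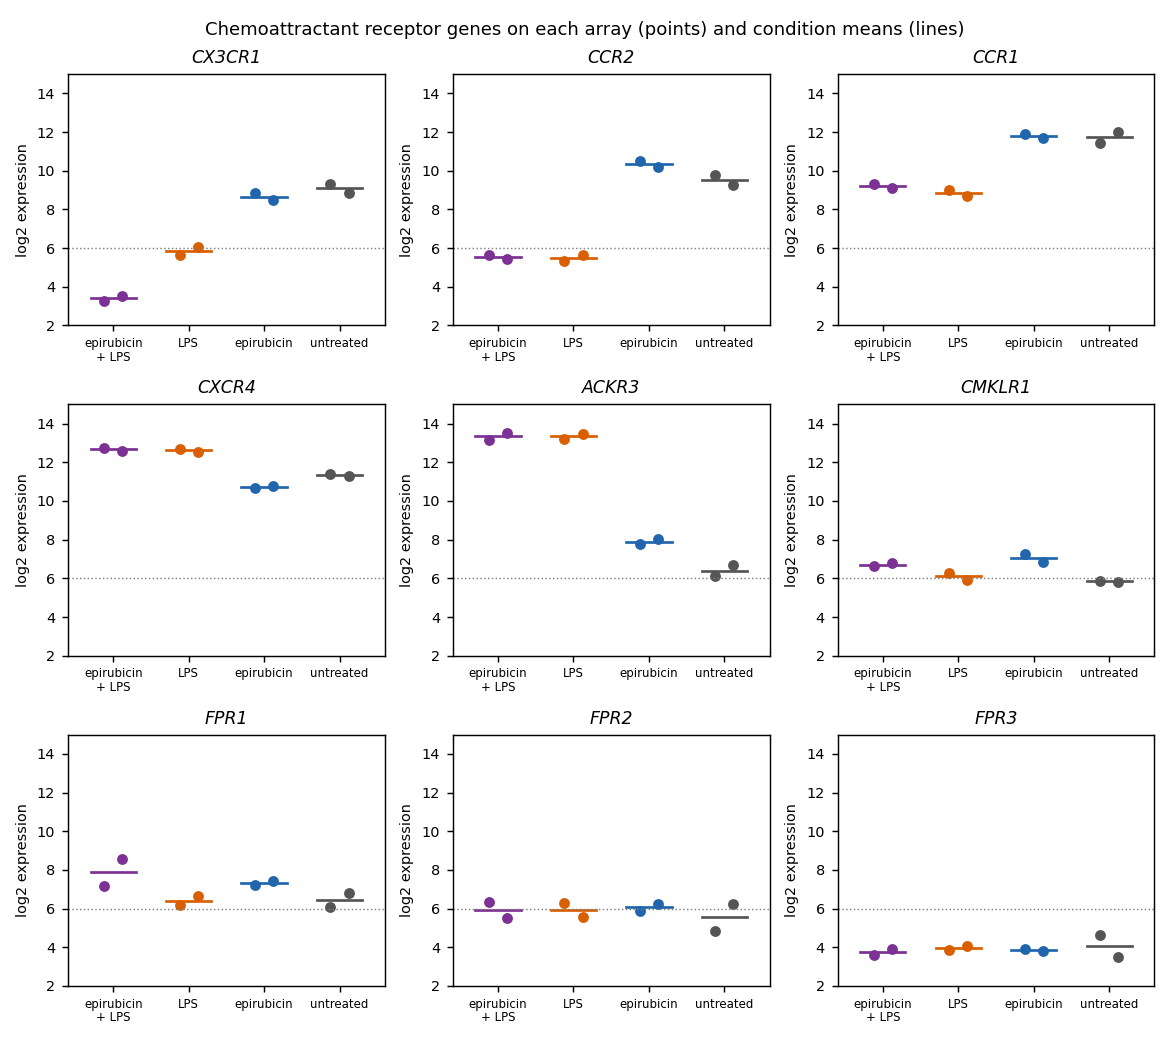
Log2 expression of the 9 receptor genes, 1 panel per gene, with points for the 2 arrays of each condition, lines for their mean and a dotted line at log2 6. CX3CR1, CCR2 and CCR1 lie lower and CXCR4 and ACKR3 higher in both conditions with LPS than in both without it, and the CX3CR1 arrays of epirubicin with LPS (3.28 and 3.54) lie below those of LPS alone (5.66 and 6.07).

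CX3CR1, the receptor of the membrane-bound chemokine CX3CL1, had the strongest fall with epirubicin of the 9 genes. It read 3.28 and 3.54 on the arrays of epirubicin with LPS, 5.66 and 6.07 with LPS, 8.85 and 8.47 with epirubicin, and 9.33 and 8.87 when untreated. Both arrays of epirubicin with LPS lay below both LPS arrays, and these in turn below every array without LPS. In the presence of LPS, the log2 fold change of CX3CR1 with epirubicin was −2.46 (standard error 0.29, 95% interval −3.11 to −1.80, 5.49-fold, adjusted p = 0.0464 from limma). Both means of that comparison, 3.41 ± 0.18 with epirubicin and LPS and 5.87 ± 0.29 with LPS alone (SD, n = 2 each), were low. The adjusted p rested on all 8 arrays, since it lay between 0.0892 and 0.244 when any single array was left out, while the unadjusted threshold was passed each time. Without LPS the epirubicin and untreated arrays were separated by only 0.02, and the difference of −0.44 (95% interval −1.09 to 0.22, adjusted p = 0.661) did not pass the threshold.

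LPS lowered CX3CR1 by a log2 fold change of −5.25 after epirubicin (38.0-fold, adjusted p = 1.85e-05 from limma) and of −3.23 without it (9.38-fold, adjusted p = 0.000228), each with a standard error of 0.29. The difference of these LPS effects was −2.02 (standard error 0.41, 95% interval −2.95 to −1.09). Of 21448 probe sets, 30 had a more negative difference, yet its adjusted p was 0.535, so that the differing LPS response was not called. In ascending order, the CX3CR1 levels ran from epirubicin with LPS through LPS and epirubicin to untreated, and only the last step, between epirubicin and untreated cells, did not pass the threshold. The ligand gene CX3CL1 was low throughout, with means of 3.12 with epirubicin and LPS, 3.05 with LPS, 3.03 with epirubicin and 2.89 when untreated, and did not pass the threshold in any comparison.

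CCR2, the receptor of CCL2, read 5.62 and 5.42 on the arrays of epirubicin with LPS, 5.34 and 5.63 with LPS, 10.52 and 10.19 with epirubicin, and 9.77 and 9.28 when untreated. Arrays with and without LPS were far apart, while epirubicin with LPS and LPS alone overlapped at a low level. The log2 fold change of CCR2 with LPS was −4.84 after epirubicin (standard error 0.28, 28.6-fold, adjusted p = 2.14e-05 from limma) and −4.04 without it (standard error 0.28, 16.5-fold, adjusted p = 5.35e-05). Both epirubicin arrays lay above both untreated arrays, but the difference of 0.83 (95% interval 0.20 to 1.46, 1.78-fold, adjusted p = 0.370) stayed under the 2-fold limit. Epirubicin with LPS and LPS alone differed by 0.03 (95% interval −0.60 to 0.67). From low to high the order was LPS, epirubicin with LPS, untreated and epirubicin, and of these steps only that between epirubicin with LPS and untreated cells passed the threshold.

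CCR1, which binds CCL3 and CCL5, fell with LPS in both comparisons. It read 9.29 and 9.11 with epirubicin and LPS, 9.02 and 8.67 with LPS, 11.88 and 11.69 with epirubicin, and 11.44 and 12.01 when untreated. The LPS arrays again formed a lower group, and the epirubicin and untreated arrays overlapped. The log2 fold change with LPS was −2.58 after epirubicin (standard error 0.28, 5.99-fold, adjusted p = 0.000655 from limma) and −2.88 without it (standard error 0.28, 7.35-fold, adjusted p = 0.000358). Epirubicin changed CCR1 by 0.35 in the presence of LPS (95% interval −0.29 to 0.99) and by 0.06 in its absence (95% interval −0.58 to 0.70), neither past the threshold. Its conditions had the same order as those of CCR2, with the same single step past the threshold.

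The promoter windows of CCR1, CCR2 and CX3CR1 are shown because these genes fell with LPS, and that of CXCR4 because it rose. Each window spans 250 bases before to 50 bases after a RefSeq transcript start (GRCh38.p14), written 5′ to 3′ along the strand of the gene. Capitals mark matches, on either strand, to the binding motifs of AP-1 (TGANTCA), PU.1 (GAGGAA), STAT factors (TTCNNNGAA) and C/EBP (TTGCNNAA). The interferon-stimulated response element and the κB motif were also searched. CCR1 lies in chr3:46208264-46208563 on the minus strand, CCR2 in chr3:46353861-46354160 on the plus strand, the CX3CR1 window with matches in chr3:39280392-39280691 on the minus strand, and the first CXCR4 window in chr2:136118100-136118399 on the minus strand.
CCR1: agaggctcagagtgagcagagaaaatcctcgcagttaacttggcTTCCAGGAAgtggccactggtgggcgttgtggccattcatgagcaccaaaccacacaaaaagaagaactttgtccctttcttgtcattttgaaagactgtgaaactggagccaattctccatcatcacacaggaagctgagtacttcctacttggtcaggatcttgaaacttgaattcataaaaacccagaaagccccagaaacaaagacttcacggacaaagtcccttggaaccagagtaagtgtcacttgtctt
CCR2: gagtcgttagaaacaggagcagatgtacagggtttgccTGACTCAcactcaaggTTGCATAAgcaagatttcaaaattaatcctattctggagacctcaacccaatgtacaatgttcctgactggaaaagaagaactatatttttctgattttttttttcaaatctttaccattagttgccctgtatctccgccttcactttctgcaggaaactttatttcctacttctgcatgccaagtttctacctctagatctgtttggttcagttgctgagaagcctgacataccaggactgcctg
CX3CR1: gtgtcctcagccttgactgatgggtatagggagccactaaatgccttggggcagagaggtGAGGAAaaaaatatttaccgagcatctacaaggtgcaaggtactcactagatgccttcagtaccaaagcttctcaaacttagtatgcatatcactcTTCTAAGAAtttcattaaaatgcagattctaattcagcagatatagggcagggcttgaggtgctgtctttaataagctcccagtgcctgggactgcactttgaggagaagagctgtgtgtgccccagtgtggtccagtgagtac
CXCR4: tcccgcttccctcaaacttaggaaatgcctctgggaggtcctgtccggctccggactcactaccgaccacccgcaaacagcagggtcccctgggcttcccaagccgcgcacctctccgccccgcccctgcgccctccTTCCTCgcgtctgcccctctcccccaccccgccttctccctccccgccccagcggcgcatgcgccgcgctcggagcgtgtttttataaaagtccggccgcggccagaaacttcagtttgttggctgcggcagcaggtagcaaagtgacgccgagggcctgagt

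Counted from the transcript start, the CCR1 window had a STAT match at −206. That of CCR2 had an AP-1 match at −212 and a C/EBP match at −196, and this CX3CR1 window had a PU.1 match at −190 and a STAT match at −94. The CXCR4 window, with a GC content of 66.7% against 40.7% to 46% in the other windows shown, had a PU.1 match on the opposite strand at −113. A STAT match was thus common to the CCR1 and CX3CR1 windows shown, and a PU.1 match to those of CX3CR1 and CXCR4. The other CX3CR1 windows held no match to any motif searched, so these shared matches hold only for the window chosen for its matches. Another CXCR4 window had a PU.1 match, also on the opposite strand, at −24. Among all 35114 promoter windows of this length, 27.9% held a PU.1 match, 10.5% a C/EBP match, 7.71% an AP-1 match and 7.66% a STAT match. The κB motif, in 5.91% of all windows, occurred in none of the 3 CX3CR1 windows, the 3 CXCR4 windows or the single windows of CCR1 and CCR2, nor did the interferon-stimulated response element, found in 3.57%. Windows were found for 7 of 9 receptor genes, without ACKR3 and FPR3. A match describes these letters only and is not evidence of binding.

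CXCR4, the receptor of CXCL12 that retains leukocytes in tissue, rose with LPS. It read 12.73 and 12.61 with epirubicin and LPS, 12.70 and 12.52 with LPS, 10.69 and 10.79 with epirubicin, and 11.41 and 11.28 when untreated. The conditions with LPS overlapped at the top, and the epirubicin arrays lay lowest, below both untreated arrays. The log2 fold change with LPS was 1.93 after epirubicin (standard error 0.23, 3.81-fold, adjusted p = 0.000988 from limma) and 1.27 without it (standard error 0.23, 2.41-fold, adjusted p = 0.00870). Epirubicin without LPS gave −0.61 (95% interval −1.12 to −0.09, adjusted p = 0.415), which did not reach 2-fold, and with LPS 0.05 (95% interval −0.46 to 0.57). The LPS effects differed by 0.66 (95% interval −0.07 to 1.39, adjusted p = 0.734). From low to high the order was epirubicin, untreated, LPS and epirubicin with LPS, and only the step from untreated cells to LPS passed the threshold.

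ACKR3, an atypical receptor that takes up CXCL12 and CXCL11 from the surroundings, showed the largest change among the 9 genes, in the LPS comparison of cells without epirubicin. It read 13.16 and 13.53 with epirubicin and LPS, 13.22 and 13.49 with LPS, 7.77 and 8.03 with epirubicin, and 6.11 and 6.68 when untreated. The conditions with LPS overlapped, and the epirubicin arrays lay above the untreated arrays with a gap of 1.09. The log2 fold change of ACKR3 with LPS was 5.45 after epirubicin (43.6-fold, adjusted p = 1.48e-05 from limma) and 6.96 without it (124-fold, adjusted p = 3.79e-06), each with a standard error of 0.29. Epirubicin without LPS raised it by 1.50 (95% interval 0.84 to 2.16, 2.83-fold), with an adjusted p of 0.174 that did not pass 0.05. In the presence of LPS the epirubicin difference was −0.01 (95% interval −0.67 to 0.65). The difference of LPS effects was −1.51 (standard error 0.41, 95% interval −2.45 to −0.58, adjusted p = 0.583), and 194 of 21448 probe sets had a more negative one. Its levels ascended from untreated through epirubicin to both LPS conditions, which did not differ beyond their spread.

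CMKLR1, the chemerin receptor of macrophages and dendritic cells, was the gene besides ACKR3 that rose with epirubicin in the absence of LPS. It read 6.66 and 6.77 with epirubicin and LPS, 6.28 and 5.92 with LPS, 7.24 and 6.86 with epirubicin, and 5.86 and 5.83 when untreated. Both conditions with epirubicin lay above both without it, and the untreated mean of 5.84 ± 0.02 (SD, n = 2) was low. The log2 fold change with epirubicin was 0.62 in the presence of LPS (95% interval 0.04 to 1.19, 1.53-fold, adjusted p = 0.434 from limma) and 1.20 in its absence (standard error 0.25, 95% interval 0.62 to 1.78, 2.30-fold, adjusted p = 0.208). The call without LPS was lost when epirubicin duplicate 1 was left out, with a log2 fold change of 1.01. LPS changed CMKLR1 by −0.33 after epirubicin (95% interval −0.91 to 0.24) and by 0.25 without it (95% interval −0.33 to 0.83). From low to high the order was untreated, LPS, epirubicin with LPS and epirubicin, and no step between neighbours passed the threshold. RARRES2, the gene of chemerin, was low in every condition, with means of 4.86 with epirubicin and LPS, 4.21 with LPS, 4.36 with epirubicin and 4.38 when untreated, and did not pass the threshold.

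FPR1, the high-affinity receptor of bacterial formyl peptides, read 7.17 and 8.59 with epirubicin and LPS, 6.19 and 6.64 with LPS, 7.24 and 7.40 with epirubicin, and 6.08 and 6.81 when untreated. All arrays with epirubicin lay above all arrays without it, but the duplicates of epirubicin with LPS were far apart (SD 1.00, n = 2). The epirubicin difference was 1.46 in the presence of LPS (95% interval 0.40 to 2.53, 2.76-fold, adjusted p = 0.305 from limma) and 0.88 in its absence (95% interval −0.18 to 1.94, adjusted p = 0.568). With LPS the unadjusted p of 0.0128 missed the limit of 0.01, and the value lay at 0.76 or 2.17 depending on which of these duplicates was left out. Without duplicate 1 of epirubicin with LPS, the difference passed the threshold. LPS changed FPR1 by 0.56 after epirubicin (95% interval −0.51 to 1.62) and by −0.03 without it (95% interval −1.09 to 1.03).

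FPR2, which binds serum amyloid A and annexin A1, read 6.32 and 5.49 with epirubicin and LPS, 6.31 and 5.55 with LPS, 5.90 and 6.23 with epirubicin, and 4.86 and 6.25 when untreated. All conditions overlapped, and the intervals of its epirubicin differences, from −1.16 to 1.12 with LPS and from −0.63 to 1.65 without, included changes of over 2-fold. FPR3, whose known ligand is a peptide cut from the heme-binding protein HEBP1, read 3.63 and 3.92 with epirubicin and LPS, 3.84 and 4.05 with LPS, 3.93 and 3.81 with epirubicin, and 4.65 and 3.51 when untreated. Its values were low on every array, the conditions overlapped, and its differences lay between −0.21 and −0.10. For none of the 3 FPR genes did a step between neighbours in the order of levels pass the threshold. The CMKLR1 promoter window held PU.1 matches at −155 (on the opposite strand), −30 and 28 and a STAT match at −200. The FPR1 window held an AP-1 match at −6, and 1 of the 2 FPR2 windows held a κB match at −159 and the other a STAT match at −144.

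**Figure D2:**
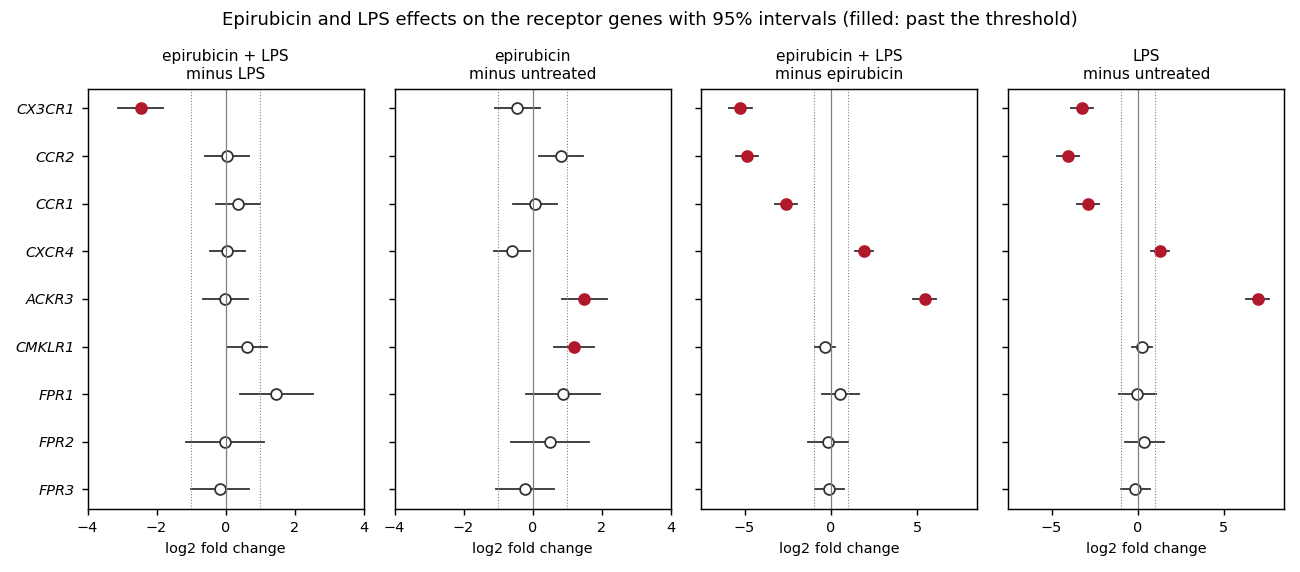
Log2 fold changes of the 9 receptor genes with 95% intervals from limma, for epirubicin with and without LPS and for LPS with and without epirubicin, with dotted lines at 2-fold and filled points past the threshold. The epirubicin panels have 1 filled point with LPS (CX3CR1, −2.46) and 2 without it (ACKR3, 1.50, and CMKLR1, 1.20), while each LPS panel has 5.

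The difference of LPS effects, that is the LPS response after epirubicin minus the response without it, was called at an adjusted p of at most 0.05. None of the 9 receptor genes was called by limma, against a background of 0.00466% of all gene probe sets (1 of 21448). At an unadjusted p of at most 0.05 there were 2 of 9, CX3CR1 and ACKR3, against a background of 7.30%. The median difference of the 9 genes was −0.53, beside 0.01 over all gene probe sets, and their values ranged from −2.02 for CX3CR1 to 0.66 for CXCR4. The same contrast is the epirubicin effect with LPS minus that without it. For the genes outside the call, the intervals stayed wide, for example −1.69 to 0.10 for CCR2 and −0.61 to 1.20 for CCR1.

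**Figure D3:**
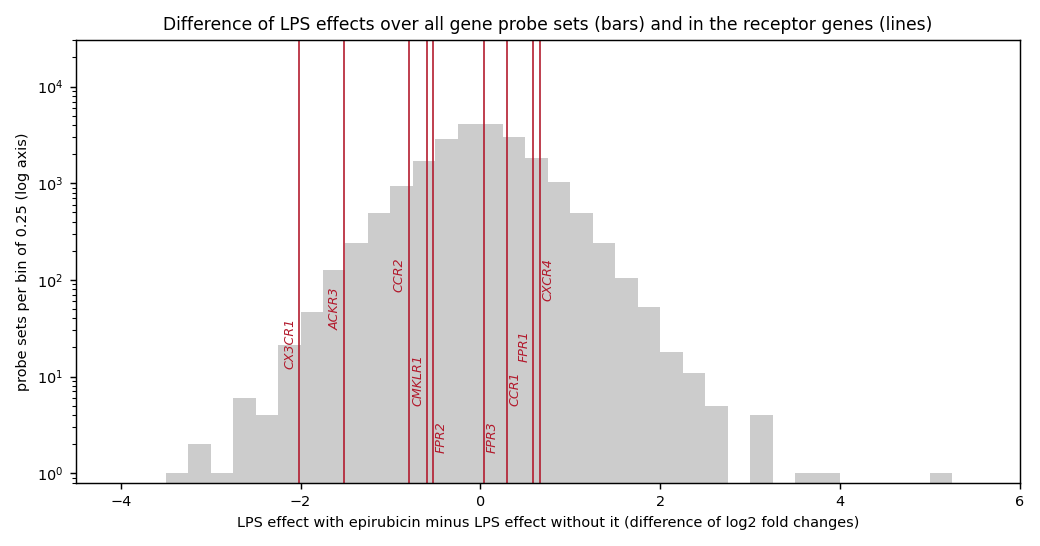
Number of gene probe sets (bars, log axis, bins of 0.25) by the difference of LPS effects, that is the log2 fold change with LPS after epirubicin minus that without epirubicin, with lines for the 9 receptor genes. CX3CR1 (−2.02) and ACKR3 (−1.51) lie in the left flank, and the other 7 genes lie between −0.80 and 0.66.

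Other chemokine receptors were measured for 17 of 19 listed genes. Epirubicin in the presence of LPS changed 1 of them (2.66% of all gene probe sets). In the absence of LPS, 1 rose and 2 fell with epirubicin (2.26% of all changed in either direction). With LPS, 2 rose and 1 fell after epirubicin (5.46% and 6.59% of all), and 3 rose and 1 fell without it (5.40% and 6.28%). CCR7, which guides activated cells to lymph nodes, read 12.85 and 12.93 with epirubicin and LPS, 13.87 and 13.87 with LPS, 5.39 and 5.23 with epirubicin, and 4.55 and 4.98 when untreated. It rose with LPS by a log2 fold change of 7.58 after epirubicin (adjusted p = 2.37e-06 from limma) and of 9.11 without it (adjusted p = 1.06e-06), each with a standard error of 0.24, and the difference of −1.53 between these was not called (adjusted p = 0.535). Its means without LPS were low, 5.31 with epirubicin and 4.76 when untreated. CXCR2, the receptor of CXCL8, followed the opposite course. It read 3.87 and 4.66 with epirubicin and LPS, 4.84 and 4.35 with LPS, 9.61 and 8.54 with epirubicin, and 9.49 and 8.69 when untreated, and fell with LPS by 4.81 on the log2 scale after epirubicin and by 4.50 without it, to means that were low. CCRL2, an atypical receptor that presents chemerin, rose by 1.17 after epirubicin and by 1.23 without it.

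CXCR5, the receptor of CXCL13 known from B cells, was lower with epirubicin in both comparisons. It read 6.56 and 6.19 with epirubicin and LPS, 9.03 and 8.55 with LPS, 5.12 and 5.70 with epirubicin, and 7.15 and 6.64 when untreated. Its epirubicin effect was −2.42 with LPS (standard error 0.32, adjusted p = 0.0512 from limma) and −1.49 without it (standard error 0.32, adjusted p = 0.208), and LPS raised it by 1.90 in cells without epirubicin. The arrays of each pair compared did not overlap. Without LPS, epirubicin also raised CCR10 (1.52) and lowered the scavenger receptor ACKR2 (−1.23), both of which had low means in every condition. For neither was the adjusted p from limma 0.05 or less, and the CCR10 duplicates with epirubicin were apart, at 5.65 and 4.58.

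Among receptors for other chemoattractants, 9 of 11 listed genes were measured. LPS raised C5AR1, the receptor of complement C5a, by a log2 fold change of 1.35 after epirubicin and of 1.28 without it. PTAFR, the receptor of platelet-activating factor, rose by 2.21 after epirubicin and by 2.42 without it, and GPR183, an oxysterol receptor, by 4.21 after epirubicin and by 3.61 without it. The adjusted p of these changes was 0.0107 or less by limma. S1PR1, a receptor of the egress signal sphingosine 1-phosphate, fell by 1.33 with LPS after epirubicin (adjusted p = 0.0683 from limma), at low levels. Its duplicates with epirubicin were apart, at 5.32 and 4.13. Epirubicin with LPS changed none of the 9 (2.66% of all gene probe sets), although 1 had an unadjusted p of at most 0.05. In the absence of LPS, epirubicin lowered C5AR2, another C5a receptor, by 1.33 on the log2 scale (adjusted p = 0.220 from limma).

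Of the ligands of the receptors, 18 of 22 were measured. CCL2, the main ligand of CCR2, rose with epirubicin. It read 8.34 and 8.23 with epirubicin and LPS, 6.07 and 6.41 with LPS, 8.05 and 9.29 with epirubicin, and 5.45 and 6.74 when untreated, so that no array with epirubicin overlapped one without. The log2 fold change was 2.04 in the presence of LPS (standard error 0.50, adjusted p = 0.198 from limma) and 2.57 in its absence (standard error 0.50, adjusted p = 0.180). The receptor CCR2 on the same arrays had differences of 0.03 and 0.83 in these comparisons, neither past the threshold.

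CCL3, a ligand of CCR1, read 15.72 and 15.95 with epirubicin and LPS, 16.76 and 16.60 with LPS, 5.09 and 5.90 with epirubicin, and 5.55 and 5.23 when untreated. It rose with LPS by 10.34 on the log2 scale after epirubicin and by 11.29 without it, while CCR1 fell in both comparisons. The CCL3 means without LPS were low. CCL3L3, a near-identical copy whose probe set may share signal with that of CCL3, also rose with LPS and fell by 1.42 with epirubicin in the presence of LPS (adjusted p = 0.104 from limma). CCL5, which binds CCR1 as well, rose by 1.78 after epirubicin and by 1.20 without it. ADM, the gene of adrenomedullin, a peptide taken up by ACKR3, rose by 1.52 after epirubicin and by 1.59 without it.

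CXCL12, shared by CXCR4 and ACKR3, rose with LPS after epirubicin (1.15, adjusted p = 0.0459 from limma) and had a difference of −0.10 without it. Its means were 6.98 with epirubicin and LPS, 6.04 with LPS, 5.82 with epirubicin and 6.14 when untreated. CXCL11 was low in all conditions. CTSG, a granule protease that binds FPR1, fell with epirubicin in the presence of LPS (−1.75, adjusted p = 0.126) and rose with LPS alone (2.42, adjusted p = 0.00255). ANXA1, the gene of annexin A1, had differences of 0.72 with LPS and 0.69 without it, under the 2-fold limit in both epirubicin comparisons. HEBP1, the source of the FPR3 ligand, fell by 1.24 with LPS after epirubicin.

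**Figure D4:**
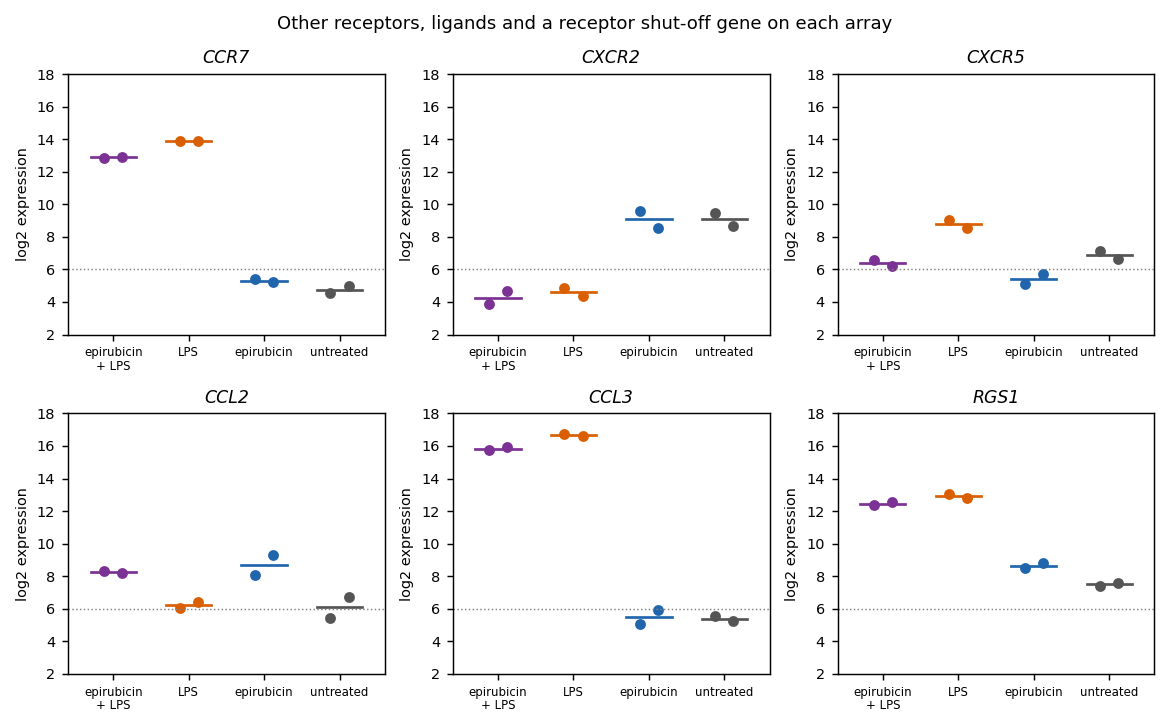
Log2 expression of CCR7, CXCR2, CXCR5, CCL2, CCL3 and RGS1, with points for the 2 arrays of each condition, lines for their mean and a dotted line at log2 6. CCR7, CCL3 and RGS1 lie higher and CXCR2 lower with LPS, CCL2 lies higher on all arrays with epirubicin, and CXCR5 lies lower with epirubicin than in the matching condition without it.

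The list of receptor coupling and shut-off genes, which holds G protein subunits, RGS proteins, receptor kinases, arrestins and downstream enzymes, had 27 of 28 genes measured. With LPS, 4 rose and 3 fell after epirubicin (5.46% and 6.59% of all gene probe sets), and 4 rose and 7 fell without it (5.40% and 6.28%). RGS1, which shortens G protein signals and restrains migration to chemokines, read 12.37 and 12.56 with epirubicin and LPS, 13.07 and 12.82 with LPS, 8.49 and 8.82 with epirubicin, and 7.41 and 7.60 when untreated. It rose with LPS by a log2 fold change of 3.80 after epirubicin and of 5.43 without it, and RGS2, of the same family, by 3.59 after epirubicin and 4.99 without it (adjusted p of 4.21e-05 or less for each by limma). PIK3R5, a regulatory subunit of PI3Kγ, rose by 3.21 after epirubicin and by 2.93 without it, and RGS14 fell by 2.74 after epirubicin and by 3.60 without it. Epirubicin lowered PIK3CG, the catalytic subunit of PI3Kγ, in the presence of LPS (−1.32, adjusted p = 0.114). In its absence RGS1 (1.15) and RGS2 (1.22) rose, and GRK6, a kinase that phosphorylates active receptors (−1.35), and RGS14 (−1.20) fell, with adjusted p between 0.154 and 0.277.

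The median log2 fold change with epirubicin in the presence of LPS was 0.03 for the 9 receptor genes, −0.08 for the other chemokine receptors, 0.06 for the ligands and −0.15 for the coupling genes, beside 0.01 over all gene probe sets. In the absence of LPS these medians were 0.51, −0.10, −0.02 and −0.22, beside 0.00 over all gene probe sets.

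Genes were also ranked by how closely their profile over the 8 arrays, centred on its own mean, followed that of a receptor gene, among 9776 genes with a mean of at least 6 in some condition. The measure is the root mean square difference in log2 units over arrays of these 4 conditions, given as a description without a test. TNRC6B (0.18), SLC31A1 (0.18) and TXNIP (0.23) lay closest to CCR1, and MERTK (0.43), SESN1 (0.43) and PGBD5 (0.48) closest to CCR2. The nearest to CX3CR1 were TMEM37 (0.27), STARD13 (0.56) and YPEL3 (0.68). TMEM37 had means of 6.22 with epirubicin and LPS, 8.49 with LPS, 11.55 with epirubicin and 11.94 when untreated. STARD13 and YPEL3 shared this order of conditions, which is that of CX3CR1, the profile they were chosen to resemble. For ACKR3 the nearest were NAMPT (0.34), HS3ST3B1 (0.42) and ITGB8 (0.43), and for CXCR4 they were CCL5 (0.11), RNF126 (0.14) and MTMR14 (0.14). EIF1AY (0.16), NXT2 (0.17) and HELLS (0.18) lay closest to CMKLR1. These distances are not comparable between receptors, whose own root mean square spread differed. It was 1.38 for CCR1, 2.25 for CCR2, 2.30 for CX3CR1, 3.15 for ACKR3, 0.83 for CXCR4 and 0.50 for CMKLR1.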

How the data were processed

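Total RNA of PMA-differentiated THP-1 cells was hybridised to Clariom S HT arrays. The authors deposited normalized log2 expression values, summarised with SST-RMA in the transcriptome analysis console according to the methods and with RMA per the labels. Its version was not given in the sources used here. Raw array files were not used here. Of 24351 deposited rows, 2903 control rows were removed. The 21448 gene probe sets entered the tests without further normalization, of which 17709 carried a single symbol in the platform table.

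The 4 conditions were fitted in 1 model with limma 3.58.1 (R 4.3.3, data.table version 1.17.8), with 4 residual degrees of freedom and 4.25 prior degrees of freedom. Adjusted p-values are Benjamini-Hochberg values over all gene probe sets. The epirubicin comparisons, the LPS comparisons and the difference of LPS effects were also computed in other ways. These used other prior variances, normalizations, a filter on low values, fewer arrays and a replicate block. The run on only the arrays compared left out the difference of LPS effects. Comparisons used only for the order of levels were not recomputed. The scripts were tested on simulated data. The duplicate number was not used as a pairing in this model. The 6 correlations of duplicate differences between conditions lay between −0.01 and 0.02, which cannot show how the cultures were arranged. The number of arrays limits the precision.

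The 9 receptor genes, the other gene lists and the tests were chosen with earlier results of these data known. Named are all 9 receptor genes, all other list members past the threshold where 5 or fewer were, otherwise the 4 with the smallest p per list and comparison, and ligand genes of a described receptor. Listed genes without a matching symbol, such as LTB4R, were not analysed here. Promoter windows come from RefSeq (GRCh38.p14). Figures were drawn with Python 3.11.15 and matplotlib 3.10.9.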

Additional observations from a re-analysis of the deposited data

How the results depend on the processing

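The receptor genes past the threshold numbered 5 in both LPS comparisons and 0 in the difference of LPS effects under every alternative run that covered them. For epirubicin with LPS the count was 1, but 2 with a mean-dependent prior variance, 2 with a mean-dependent and robust one and 2 with the replicate block, FPR1 being the gene added to CX3CR1. With single arrays left out it ranged from 1 to 2, the higher count coming without duplicate 1 of epirubicin with LPS, and for epirubicin without LPS from 1 to 2, where CMKLR1 was lost without epirubicin duplicate 1. No other call of a receptor gene by p and fold change was altered. The adjusted p of CXCR4 for LPS without epirubicin ranged from 0.0155 to 0.0607 with single arrays left out, and was above 0.05 without LPS duplicate 1 and without untreated duplicate 2. The adjusted p of CX3CR1 for epirubicin with LPS ran from 0.00114 with a mean-dependent prior to 0.244 without duplicate 2 of epirubicin with LPS. That of ACKR3 for epirubicin without LPS ran from 0.00249 with a mean-dependent and robust prior to 0.501 without untreated duplicate 1. Over all gene probe sets, the difference of LPS effects was called for 1, but for 45 under both mean-dependent priors, for 0 with the replicate block and for 0 with any array left out. The cause was not tested.

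Signs turned only for values near 0 or of the FPR genes. ACKR3 with epirubicin and LPS gave 0.012 after quantile normalization (otherwise −0.01), and FPR1 with LPS without epirubicin gave 0.0858 after quantile normalization and 0.0288 after median centring (otherwise −0.03). With single arrays left out, the epirubicin differences with LPS ranged from −0.11 to 0.18 (CCR2), −0.0363 to 0.14 (CXCR4), −0.19 to 0.17 (ACKR3) and −0.43 to 0.39 (FPR2), and without LPS from −0.23 to 0.35 (CCR1), −0.19 to 1.21 (FPR2) and −0.78 to 0.36 (FPR3). The LPS differences after epirubicin ranged from −0.15 to 1.27 (FPR1), −0.57 to 0.25 (FPR2) and −0.25 to 0.0459 (FPR3), and without epirubicin from −0.40 to 0.34 (FPR1), −0.33 to 1.07 (FPR2) and −0.71 to 0.43 (FPR3). The difference of LPS effects ranged from −0.12 to 1.29 (FPR1), −1.23 to 0.17 (FPR2) and −0.53 to 0.60 (FPR3). FPR3 was not tested under the filter on low values, and no receptor gene had a second probe set with its symbol alone to compare. Probe sets with several symbols were not searched. Where 1 array of a condition was left out, the remaining array was assumed to vary like the other conditions. Values below log2 6 limit the folds of CCR2, CX3CR1 and CXCR2, which were low under LPS, and of CCR7 and CCL3, which were low without it.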
